A study of Mus musculus with 10 samples.

Results

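The 39 genes described here are the genes of T cells, natural killer (NK) cells and immune checkpoints that were chosen by name, out of 19096 mouse genes with a probe on the array. A probe was assigned to a gene through the accession in the scanner files, and where a gene had more than 1 probe, the brightest over the 10 arrays stood for it. Of the 39 genes, 37 had a probe and 35 were tested, against 15586 genes tested in all. No probe was paired with Cd8b1 or Tigit, and the probes of Foxp3 and Ctla4 were too close to background on too many arrays to be tested.

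T cells recognise antigen through a T cell receptor whose signal is carried by the CD3 chains and the kinases LCK and ZAP70. CD8 T cells and NK cells kill target cells with perforin and granzymes, and NK cells choose targets through a balance of activating and inhibitory receptors. Checkpoint receptors such as PD-1 are induced on activated T cells and restrain them when bound by ligands on tumour or myeloid cells. In lung tumours these genes are commonly read as a gauge of lymphocyte infiltration and of its state.

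RNA was measured in 5 WT samples (whole lung of mice with floxed Lkb1 alleles and no Cre, Lkb1f/f) and 5 SCC samples (squamous cell carcinoma of the lung, CCSPiCreLkb1f/f). In the SCC mice the promoter of CCSP, the club cell secretory protein, drove the iCre recombinase in airway epithelium, which directs the deletion of Lkb1, a kinase and tumour suppressor, to that epithelium. Lkb1 itself was not analysed here. Both groups were labelled B6.129 and 13 months old, both carried the floxed alleles, and neither received a treatment. The same model also forms adenocarcinomas. Each sample was hybridised to its own one-colour Agilent array. The methods count samples as biological replicates. All levels below are log2 units of quantile-normalized signal, and differences are SCC minus WT with the standard error from limma.

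The tissue labels were checked against marker genes. The squamous genes Krt5, Krt14 and Trp63 were higher on all 5 SCC arrays than on all WT arrays, by 11.35 ± 0.41, 10.4 ± 0.55 and 7.44 ± 0.27 log2 units (9.76, 9.13 and 5.48 with the another background correction, normexp). Of the 4 lung epithelial genes, Ager and Scgb1a1 fell by 2.21 and 1.33 log2 units in SCC, and Sftpa1 passed with a decrease under 2-fold (-0.74 ± 0.088). Sftpc lay at the top of the normalized range, 18.8, on all WT arrays and 2 SCC arrays, so no difference is given for it. SCC replicate 2 stood apart, with a mean of the squamous markers 8.15 log2 units above WT against 9.99 to 10.28 on the other SCC arrays. On SCC replicate 5, 90.2% of probes were well above background, against 71.0% to 74.5% on the other 9 arrays. The counts of members called are therefore also given without these arrays, as is the count of any other list where it moved by over 1.5 times. Slide 1 carried WT arrays only (replicates 1 to 4), slide 3 SCC arrays only (replicates 4 and 5), and slide 2 the remaining WT array with SCC replicates 1 to 3.

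In SCC most of the T and NK cell genes were lower than in WT lung, and the gene of the checkpoint receptor PD-1 was higher. A gene was called where limma's Benjamini-Hochberg adjusted p, taken over all 30374 tested probes, was under 0.05 and the difference at least 2-fold. Of the 35 tested members, 19 were called lower (13.4% of all tested genes were called lower) and 1, Pdcd1, was called higher (11.6% of all tested genes were called higher). The median difference over the 35 members was -1.18 log2 units, and over all tested genes it was -0.04. By adjusted p alone, 22 members passed as lower (28.4% of all genes), 2 as higher (25.5% of all genes) and 11 did not pass. On 19 members every SCC array lay below every WT array (22.5% of all genes), and on none did every SCC array lie above every WT array (18.9% of all genes).

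**Figure D1:**
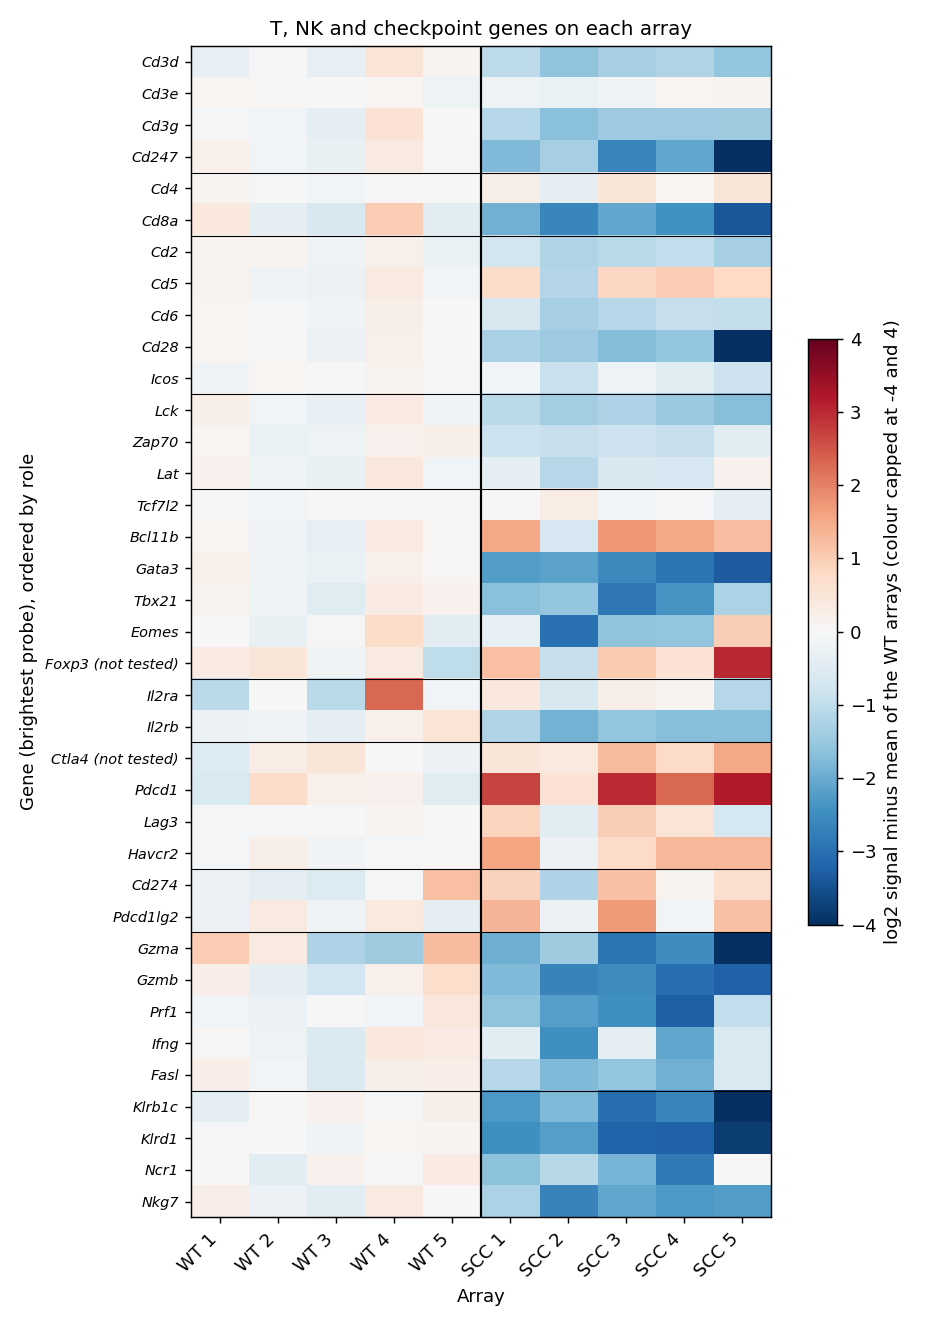
Level of the 37 genes with a probe (rows, ordered by role, lines separating the roles) on each of the 10 arrays (columns), as log2 signal minus the mean of the WT arrays. Blue marks a lower level and red a higher one, and colour is capped at -4 and 4. The granzyme, perforin and NK receptor rows at the bottom are blue in the SCC columns apart from Ncr1 on replicate 5, and Pdcd1 and Havcr2 are red in all of these except SCC replicate 2, where Pdcd1 is pale and Havcr2 is below the WT mean.

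In bulk RNA, fewer cells of a type and less RNA per cell cannot be told apart, and this holds for every difference given here. Without SCC replicate 2 the calls numbered 18 lower and 4 higher (15% and 13.1% of all tested genes), without SCC replicate 5 they numbered 20 lower and 1 higher (12.6% and 11.3%), and without both they numbered 18 lower and 3 higher (14.5% and 13.4%). The 1 slide that held both groups had 1 WT and 3 SCC arrays. With slide as a block, 10 members were called lower (Cd3d, Cd3g, Lck, Zap70, Gata3, Il2rb, Gzmb, Klrb1c, Klrd1 and Nkg7) and none higher (6.43% and 5.24% of all tested genes), and within that slide no probe of the array passed the adjustment (5835 had an unadjusted limma p under 0.05, and the smallest adjusted p was 0.0687). There the differences of the 19 members called lower ran from -3.35 (Gzma) to -0.74 (Cd2), and that of Pdcd1 was 2.59. Group and slide were otherwise confounded and cannot be told apart. With normexp background correction 14 members were called lower and 1 higher. The share of all tested genes called in each direction was not counted under normexp. Normexp adds an offset of 50 to the intensities, which shrinks log2 differences between low signals. Its value is given beside a gene where it moved the fold by over 1.5 times.

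All 4 tested NK genes fell, with a median difference of -2.47, the lowest of the 10 roles. Klrd1, which encodes CD94, the partner chain of the NKG2 receptors, measured 10.36, 10.45, 10.29, 10.49 and 10.52 on WT replicates 1 to 5 and 7.96, 8.22, 7.21, 7.18 and 6.62 on SCC replicates 1 to 5. The groups did not overlap and the SCC arrays lay over 2 log2 units below the lowest WT array. The difference was -2.99 ± 0.27, a 7.92-fold lower level (adjusted p = 2.87e-05), the largest decrease among the 35 tested members. With normexp it was -2.27. Klrb1c, which encodes NK1.1, the classical NK cell marker of B6 mice, measured 8.38, 8.79, 8.92, 8.67 and 8.97 on WT replicates 1 to 5 and 6.45, 6.97, 5.73, 6.15 and 4.35 on SCC replicates 1 to 5. Again no SCC array reached the lowest WT array, and the level was 7.04-fold lower (-2.82 ± 0.42, adjusted p = 0.000449). With normexp the difference was -1.6.

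Nkg7, a protein of the cytotoxic granule membrane in NK and CD8 T cells, gave 11.3, 10.82, 10.61, 11.39 and 11.06 on WT replicates 1 to 5 and 9.77, 8.36, 8.95, 8.73 and 8.8 on SCC replicates 1 to 5. It fell by 2.12 log2 units without overlap between the groups (SE 0.26, adjusted p = 0.00014). A second probe of Nkg7 fell by 2.44. Ncr1, which encodes the activating NK receptor NKp46, gave 7.69, 7.2, 7.82, 7.57 and 7.99 on WT replicates 1 to 5 and 6.02, 6.54, 5.81, 4.82 and 7.68 on SCC replicates 1 to 5. Here the groups overlapped through SCC replicate 5, which lay within the WT range. Ncr1 was still called, at -1.48 ± 0.45 (adjusted p = 0.0203), but no longer passed with 75th percentile scaling (adjusted p = 0.0602). With normexp Ncr1 passed at -0.73, under 2-fold. All 4 NK genes remained called without SCC replicate 2, without SCC replicate 5 and without both, and Klrd1, Klrb1c and Nkg7 also with slide as a block.

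The effector genes of cytotoxic lymphocytes fell with them, 5 of 5 called lower. Gzmb, which encodes granzyme B, the protease that starts apoptosis in the target cell, measured 9.53, 8.9, 8.49, 9.47 and 9.97 on WT replicates 1 to 5 and 7.49, 6.59, 6.78, 6.25 and 6.03 on SCC replicates 1 to 5. The highest SCC array lay a full log2 unit below the lowest WT array. Its level was 6.24-fold lower in SCC (-2.64 ± 0.33, adjusted p = 0.000175, and -1.73 with normexp). Gzma, encoding granzyme A, varied more among WT lungs and gave 10.33, 9.66, 8.08, 7.89 and 10.56 on WT replicates 1 to 5 and 7.37, 7.88, 6.39, 6.82 and 5.09 on SCC replicates 1 to 5. WT replicates 3 and 4 were low, but no SCC array exceeded them, and SCC replicate 2 at 7.88 lay just under WT replicate 4 at 7.89. The difference was -2.6 ± 0.67 (adjusted p = 0.0097), and -1.69 with normexp.

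Prf1, which encodes perforin, the protein that opens the target cell to the granzymes, gave 8.04, 7.94, 8.13, 8.06 and 8.6 on WT replicates 1 to 5 and 6.56, 5.95, 5.71, 4.89 and 7.17 on SCC replicates 1 to 5. The groups were separate, with SCC replicate 4 lowest. Prf1 was 4.29-fold lower in SCC (-2.1 ± 0.37, adjusted p = 0.00125, and -1.15 with normexp). Fasl, whose product is the death ligand that binds the receptor FAS, gave 7.47, 7.09, 6.62, 7.43 and 7.46 on WT replicates 1 to 5 and 6.07, 5.44, 5.65, 5.29 and 6.6 on SCC replicates 1 to 5. It fell by 1.4 log2 units (SE 0.27, adjusted p = 0.00206), and the highest SCC array, replicate 5, lay just below the lowest WT array. A second probe of Fasl passed with a decrease under 2-fold (-0.84 ± 0.26, adjusted p = 0.0221). Ifng, which encodes interferon gamma, measured 7.36, 7.12, 6.75, 7.73 and 7.64 on WT replicates 1 to 5 and 6.91, 4.88, 6.94, 5.24 and 6.72 on SCC replicates 1 to 5. The groups overlapped, since SCC replicates 1 and 3 exceeded WT replicate 3. A second probe of Ifng, also with overlap, was called lower (-1.69 ± 0.55, adjusted p = 0.0276). Ifng was called with little margin (-1.18 ± 0.44, adjusted p = 0.0475), and the call was lost in 6 of the 10 fits that left out 1 array, in which its adjusted p ranged from 0.0348 to 0.104. With normexp 3 of the 5 effector genes were called, since Fasl and Ifng fell by 0.66 and 0.55 log2 units, and with slide as a block 1 of 5, Gzmb, was called.

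**Figure D2:**
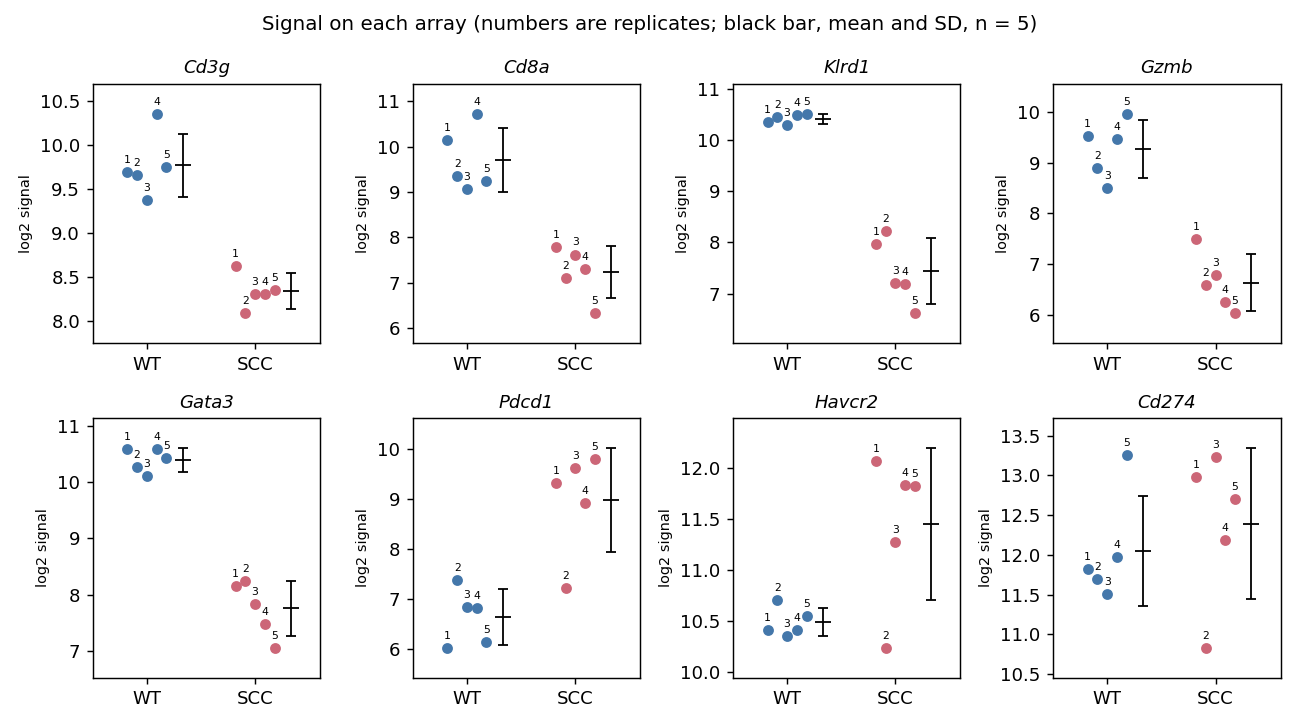
Log2 signal of 8 genes on each array, with points numbered by replicate and black bars for the mean and SD (n = 5 per group). The 5 SCC points of Cd3g, Cd8a, Klrd1, Gzmb and Gata3 lie below all WT points, and SCC replicate 2 is the lowest SCC array for Pdcd1, inside the WT range, and for Havcr2 and Cd274, below it.

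Upstream sequence is shown for Gzmb and Prf1, which fell together and act together in killing, and for Pdcd1, which went the other way. The sequences are the 250 bases before the annotated start of the gene (RefSeq, GRCm38.p6), with the letters searched in capitals. Gzmb lies at chr14:56262335-56262584 on the minus strand, Prf1 at chr10:61297586-61297835 on the plus strand and Pdcd1 at chr1:94052554-94052803 on the minus strand, each read along the gene.
Gzmb: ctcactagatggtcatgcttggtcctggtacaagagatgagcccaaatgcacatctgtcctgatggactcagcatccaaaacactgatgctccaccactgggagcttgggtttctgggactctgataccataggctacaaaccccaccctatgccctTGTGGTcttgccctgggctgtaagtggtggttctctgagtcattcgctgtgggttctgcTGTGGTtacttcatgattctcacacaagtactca
Prf1: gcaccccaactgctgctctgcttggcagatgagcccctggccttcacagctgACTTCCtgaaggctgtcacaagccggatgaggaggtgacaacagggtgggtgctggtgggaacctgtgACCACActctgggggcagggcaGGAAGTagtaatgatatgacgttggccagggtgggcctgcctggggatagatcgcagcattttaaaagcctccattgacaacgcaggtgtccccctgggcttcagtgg
Pdcd1: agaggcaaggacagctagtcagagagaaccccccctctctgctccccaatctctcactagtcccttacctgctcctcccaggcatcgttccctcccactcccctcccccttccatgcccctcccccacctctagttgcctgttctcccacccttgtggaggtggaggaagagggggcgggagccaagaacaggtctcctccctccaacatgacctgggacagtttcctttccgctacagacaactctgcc
The capitals mark the RUNX letters TGTGGT and the ETS letters GGAAGT, searched on both strands. The letters AGATAA of the GATA family and CTTTGA of the TCF/LEF family were searched in the same way. RUNX and ETS proteins are transcription factor families active in T and NK cells. Gzmb held the RUNX letters at 2 places, Prf1 held RUNX letters at 1 place and ETS letters at 2 places, and Pdcd1 held none of the 4 motifs in this window. Over the 30 members with a promoter entry, 9 (30.0%) held RUNX letters, against 14.2% of 27025 mouse promoters, and 12 (40.0%) held ETS letters, against 20%. Of the 8 NK and cytotoxic genes with an entry, 6 held RUNX letters. GATA letters stood in 4 members (13.3%, against 10.3%) and TCF/LEF letters in 4 (13.3%, against 14.0%). A match of letters is a description and not a binding site.

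Of the 4 CD3 chain genes of the T cell receptor complex, 3 were called lower and 1, Cd3e, did not pass, and with slide as a block 2 were called (Cd3d and Cd3g). Cd3d gave 9.82, 10.19, 9.84, 10.67 and 10.28 on WT replicates 1 to 5 and 9.1, 8.54, 8.83, 8.95 and 8.58 on SCC replicates 1 to 5, and Cd3g gave 9.7, 9.66, 9.38, 10.36 and 9.75 on WT replicates 1 to 5 and 8.63, 8.09, 8.31, 8.31 and 8.35 on SCC replicates 1 to 5. For both genes every SCC array lay below every WT array and the SCC arrays were close to each other. Cd3d was 2.57-fold lower (-1.36 ± 0.18, adjusted p = 0.000262) and Cd3g 2.7-fold lower (-1.44 ± 0.18, adjusted p = 0.000156). Cd247, which encodes the zeta chain that also serves NK receptors, measured 9.55, 9.24, 9.05, 9.71 and 9.27 on WT replicates 1 to 5 and 7.58, 8.04, 6.73, 7.28 and 4.9 on SCC replicates 1 to 5. It fell by 2.46 log2 units (SE 0.51, adjusted p = 0.00312), and SCC replicate 5 was far below the other SCC arrays. With normexp it fell by 1.56, and with slide as a block it did not pass (-1.82, adjusted p = 0.188). A second tested probe of Cd247 did not pass (-1.06, adjusted p = 0.268), with its highest value on SCC replicate 5. The probe of Cd3e did not pass, with a WT mean of 6.7 and an SCC mean of 6.62. The difference was -0.08 ± 0.11, with an interval of -0.32 to 0.16, which does not include the decrease seen for the other chains. Cd3e had 1 probe, dimmer in WT than those of Cd3d and Cd3g (means 10.16 and 9.77). How well that probe responds to Cd3e was not tested.

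Among the co-receptors the CD8 gene fell and the CD4 gene did not pass. Cd8a, the co-receptor of cytotoxic T cells, gave 10.14, 9.36, 9.07, 10.73 and 9.25 on WT replicates 1 to 5 and 7.79, 7.11, 7.62, 7.29 and 6.33 on SCC replicates 1 to 5. All SCC arrays lay below all WT arrays, with SCC replicate 5 lowest. The level was 5.59-fold lower (-2.48 ± 0.37, adjusted p = 0.000475), and both other probes of Cd8a were also called lower, at -2.71 and -2.03. With normexp the difference was -1.75, and with slide as a block it was -1.74 and did not pass (adjusted p = 0.12). Cd4, the co-receptor of helper T cells, gave 5.65, 5.5, 5.43, 5.6 and 5.52 on WT replicates 1 to 5 and 5.77, 5.19, 6.02, 5.63 and 6.03 on SCC replicates 1 to 5. SCC replicate 2 was the lowest of all arrays and SCC replicates 3 and 5 the highest. The difference was 0.19 ± 0.16 with an interval of -0.16 to 0.54 (adjusted p = 0.342), and without SCC replicate 2 it was 0.32 and passed under 2-fold (adjusted p = 0.0247). Cd4 had 1 probe, with a WT mean of 5.54 against 9.71 for Cd8a. Whether Cd8a and Cd4 differed in their change was not tested.

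Downstream of the receptor, Lck, the kinase that starts its signal, gave 10.73, 10.39, 10.15, 10.81 and 10.35 on WT replicates 1 to 5 and 9.42, 9.1, 9.27, 9 and 8.79 on SCC replicates 1 to 5. The groups were separate and Lck fell by 1.37 log2 units (SE 0.16, adjusted p = 0.000122). Zap70, the kinase recruited to the phosphorylated CD3 chains, passed the test with a decrease under 2-fold (-0.79 ± 0.14, adjusted p = 0.00123), from a WT mean of 9.22 to an SCC mean of 8.43. Lat, the adaptor that ZAP70 phosphorylates, differed by -0.53 ± 0.24 and did not pass (adjusted p = 0.0905), while without SCC replicate 5 it passed at -0.7 (adjusted p = 0.0127).

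Of the surface and co-stimulatory genes, Cd2, an adhesion receptor of T and NK cells, gave 10.46, 10.42, 10.1, 10.5 and 10.04 on WT replicates 1 to 5 and 9.56, 9.11, 9.23, 9.34 and 8.99 on SCC replicates 1 to 5. No SCC array reached the WT range, and Cd2 was 2.09-fold lower (-1.06 ± 0.14, adjusted p = 0.000232). Cd28, the main co-stimulatory receptor, gave 6.55, 6.46, 6.23, 6.66 and 6.44 on WT replicates 1 to 5 and 5.16, 5.02, 4.74, 4.92 and 2.5 on SCC replicates 1 to 5. It fell by 2 log2 units (SE 0.46, adjusted p = 0.00533), with the groups separate and SCC replicate 5 far below the rest. Without that array the decrease was 1.51, and with normexp background correction it was 0.6, under 2-fold. Cd6, which binds the adhesion molecule ALCAM, passed just short of 2-fold (-1 ± 0.14, adjusted p = 0.00028, groups separate). A second probe of Cd6 did not pass (0.22 ± 0.2, adjusted p = 0.385), and the mean of both probes differed by -0.39. Icos, an inducible co-stimulatory receptor of helper T cells, fell by 0.5 log2 units (SE 0.16, adjusted p = 0.029), under 2-fold. This decrease no longer passed in 6 of the 10 fits that left out 1 array. A second probe of Icos passed at -0.39 ± 0.12 (adjusted p = 0.0226).

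Cd5, a receptor of T cells and some B cells that dampens antigen signals, did not follow the other surface genes. It measured 10.43, 10.14, 10.04, 10.63 and 10.16 on WT replicates 1 to 5 and 11, 9.11, 11.12, 11.3 and 11.07 on SCC replicates 1 to 5. SCC replicates 1, 3, 4 and 5 lay above every WT array and SCC replicate 2 below every WT array. The difference over all arrays was 0.44 ± 0.38 (adjusted p = 0.361), and without SCC replicate 2 it was 0.84 (adjusted p = 0.000623).

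Of the transcription factors, Gata3, which directs T helper 2 cells and early T cell development and is also made by epithelial cells and innate lymphoid cells, gave 10.58, 10.26, 10.11, 10.59 and 10.43 on WT replicates 1 to 5 and 8.16, 8.24, 7.84, 7.48 and 7.06 on SCC replicates 1 to 5. The groups were over 1.5 log2 units apart on every pair of arrays, and Gata3 was 6.23-fold lower (-2.64 ± 0.23, adjusted p = 2.06e-05, and -2 with normexp). Tbx21, which encodes T-bet, the factor of T helper 1, CD8 effector and NK cells, gave 9.46, 9.17, 8.85, 9.65 and 9.5 on WT replicates 1 to 5 and 7.65, 7.77, 6.48, 6.96 and 8.07 on SCC replicates 1 to 5. It was lower on all SCC arrays, by 3.84-fold (-1.94 ± 0.3, adjusted p = 0.000582), and did not pass with slide as a block (-2.2, adjusted p = 0.0509). Eomes, the related factor of NK and CD8 T cells, was well above background on 5 WT and 2 SCC arrays, and its difference of -1.11 ± 0.63 did not pass (adjusted p = 0.171). Without SCC replicate 5, where it was highest at 6.53, the difference was -1.63 and passed, and with normexp it was -0.26 and did not.

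Bcl11b, a factor of T cell commitment that squamous epithelia of the skin also express, gave 8.46, 8.22, 8.04, 8.72 and 8.41 on WT replicates 1 to 5 and 9.91, 7.69, 10.09, 9.87 and 9.59 on SCC replicates 1 to 5. As with Cd5, SCC replicates 1, 3, 4 and 5 exceeded every WT array and SCC replicate 2 lay below them. The difference of 1.06 ± 0.42 did not pass over all arrays (adjusted p = 0.0595) and was 1.49 without SCC replicate 2 (adjusted p = 4.32e-05). A second probe gave 0.98. Tcf7l2, a TCF/LEF factor of WNT signalling found in many cell types, differed by -0.07 ± 0.12 with an interval of -0.34 to 0.21. It is the only member of the TCF/LEF family in the list, and Lef1 is given with the naive T cell genes.

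Il2rb, the beta chain shared by the receptors for interleukin 2 and interleukin 15, gave 9.9, 10, 9.73, 10.33 and 10.68 on WT replicates 1 to 5 and 8.92, 8.24, 8.58, 8.43 and 8.44 on SCC replicates 1 to 5. It fell by 1.61 log2 units with the groups separate (SE 0.2, adjusted p = 0.000142). Il2ra, the alpha chain CD25 of activated and regulatory T cells, was well above background on 2 WT and 4 SCC arrays. Its difference was -0.21 ± 0.62 (adjusted p = 0.799), and the sign turned with the scaling and when WT replicate 4, at 6.53, was left out. Foxp3, the factor of regulatory T cells, gave 3.79, 3.96, 3.31, 3.83 and 2.45 on WT replicates 1 to 5 and 4.68, 2.56, 4.51, 4.06 and 6.48 on SCC replicates 1 to 5. It was well above background on no WT array and on 2 SCC arrays, and was not tested.

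**Figure D3:**
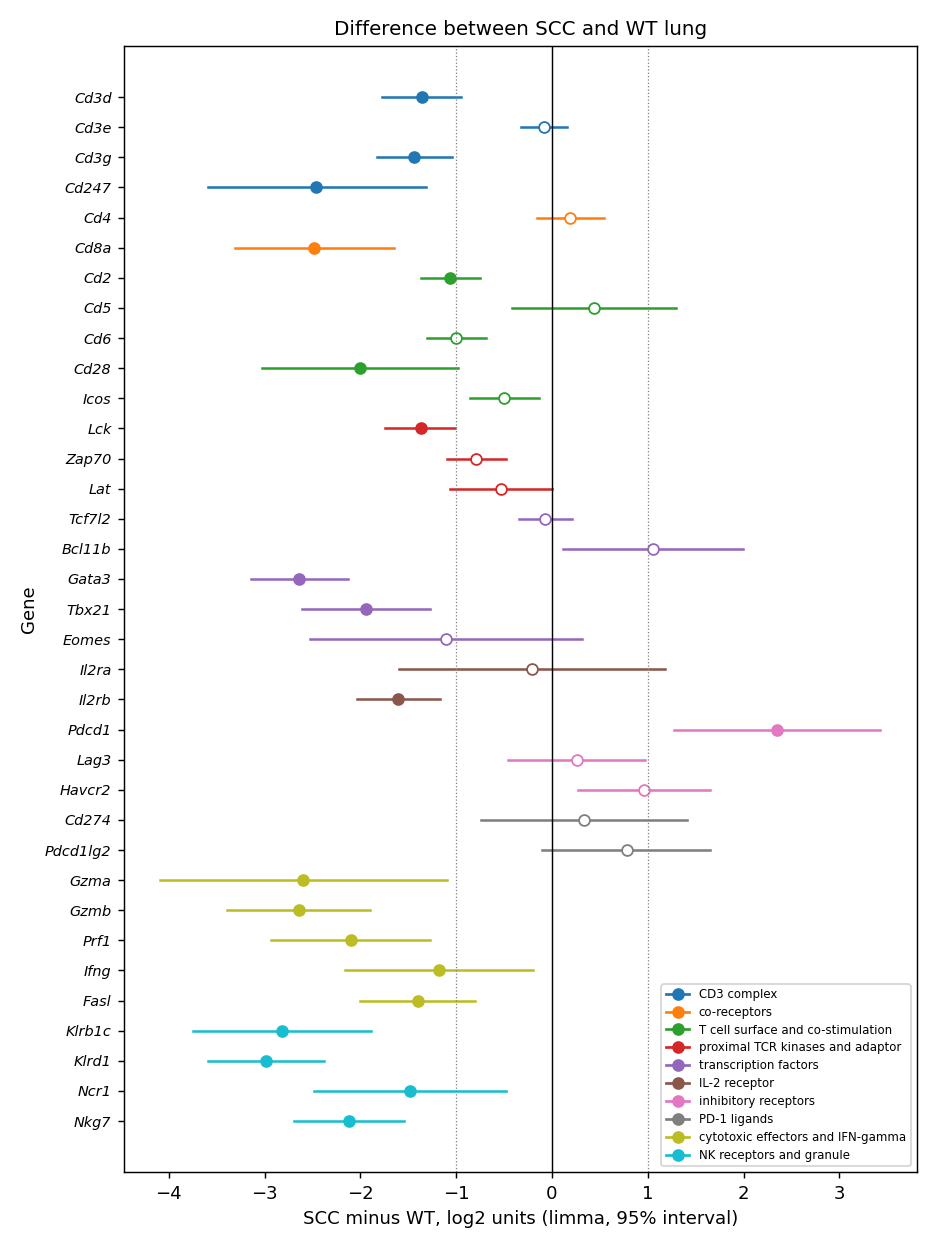
Difference between SCC and WT (horizontal axis, log2 units) with its 95% interval from limma for the 35 tested genes, coloured by role. Filled points were called and open points were not, and dotted lines mark a 2-fold difference. The cytotoxic and NK genes at the bottom all lie left of the lower dotted line, and Pdcd1 is the 1 filled point to the right.

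Of the 5 tested genes of inhibitory receptors and PD-1 ligands, 1 was called higher, 1 passed as higher under 2-fold and 3 did not pass. Pdcd1, which encodes PD-1, the receptor that holds back activated T cells and is also found on some myeloid cells, gave 6.02, 7.37, 6.84, 6.81 and 6.13 on WT replicates 1 to 5 and 9.33, 7.21, 9.62, 8.93 and 9.81 on SCC replicates 1 to 5. SCC replicates 1, 3, 4 and 5 exceeded every WT array, and SCC replicate 2 lay inside the WT range. The level was 5.09-fold higher in SCC (2.35 ± 0.48, adjusted p = 0.00299, exact two-sided permutation p = 0.0159), 2.79 log2 units higher without SCC replicate 2 and 1.57 higher with normexp. With slide as a block the difference was 2.59 and did not pass (adjusted p = 0.103).

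Havcr2, which encodes TIM-3, a receptor of exhausted T cells and of macrophages and dendritic cells, gave 10.41, 10.71, 10.35, 10.41 and 10.55 on WT replicates 1 to 5 and 12.07, 10.24, 11.27, 11.83 and 11.82 on SCC replicates 1 to 5. The same 4 SCC arrays lay above the WT range, and SCC replicate 2 lay below it. The increase passed the test just under 2-fold (0.96 ± 0.31, adjusted p = 0.0273), and was 1.26 without SCC replicate 2, where it was called. It no longer passed in 5 of the 10 fits that left out 1 array. A second probe of Havcr2 did not pass (1.04 ± 0.52, adjusted p = 0.121). Lag3, which encodes a receptor that binds MHC class II, gave 6.13, 6.13, 6.24, 6.33 and 6.25 on WT replicates 1 to 5 and 7.12, 5.79, 7.19, 6.74 and 5.51 on SCC replicates 1 to 5. Here SCC replicates 1, 3 and 4 were above the WT range and SCC replicates 2 and 5 below it. Lag3 did not pass (0.26 ± 0.32, adjusted p = 0.528), but without these arrays together it passed at 0.8 (adjusted p = 0.000343).

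Ctla4, which encodes the receptor that competes with CD28 for its ligands, was well above background on no WT array and on 1 SCC array. It measured 2.66, 3.51, 3.7, 3.18 and 2.98 on WT replicates 1 to 5 and 3.68, 3.59, 4.47, 3.99 and 4.76 on SCC replicates 1 to 5. It was not tested. Cd274, which encodes PD-L1, a ligand of PD-1 on epithelial and myeloid cells, gave 11.82, 11.7, 11.51, 11.97 and 13.25 on WT replicates 1 to 5 and 12.98, 10.83, 13.23, 12.18 and 12.7 on SCC replicates 1 to 5. WT replicate 5 was the highest of all 10 arrays and SCC replicate 2 the lowest. The difference of 0.33 ± 0.48 did not pass (adjusted p = 0.585, interval -0.74 to 1.41), and it turned to -0.91 within the slide that held WT replicate 5. Pdcd1lg2, which encodes the second ligand PD-L2, gave 5.19, 5.77, 5.27, 5.81 and 5.03 on WT replicates 1 to 5 and 6.78, 5.17, 7.11, 5.3 and 6.59 on SCC replicates 1 to 5. SCC replicates 1, 3 and 5 exceeded the WT range and SCC replicates 2 and 4 did not. The difference of 0.78 ± 0.39 did not pass (adjusted p = 0.128), and without SCC replicate 2 it was 1.03 and passed.

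Other leukocyte genes also differed between the groups, and SCC replicate 2 stood apart in the pan-leukocyte, neutrophil and macrophage lists as well. Ptprc, which encodes the pan-leukocyte protein CD45, fell by 0.55 log2 units, and of the 6 pan-leukocyte markers 1 (Cd53) was called higher and none lower (0 higher without SCC replicate 5, and 0 higher and 1 lower, Coro1a, with slide as a block). Of the 5 neutrophil markers with a probe 3 were called higher and none lower (4 higher without SCC replicate 2, 1 without SCC replicate 5, which was Cxcr2, and 0 with slide as a block), and their summed linear signal ranged from 27100 to 47500 on WT arrays and from 16900 to 119000 on SCC arrays. Of the 6 macrophage and monocyte markers 2 were called higher (0 with slide as a block), with sums of 43100 to 67100 in WT and 41500 to 115000 in SCC. On SCC replicate 2 the mean of the neutrophil markers was 0.66 and that of the macrophage markers 0.31 log2 units under the WT mean, while the other SCC arrays were at 1.64 to 1.83 and at 0.81 to 0.99 above it. Of the 8 B cell markers 5 were called lower and 1 higher (3 and 0 with slide as a block), with sums of 14100 to 22900 in WT and 8480 to 32100 in SCC. Of the 5 endothelial markers 4 were called lower, with sums of 67600 to 82300 in WT and 16200 to 28700 in SCC. In each of these lists all markers with a probe were well above background on at least 1 array of each group. The part of these cells in the levels of the T, NK and checkpoint genes was not tested.

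**Figure D4:**
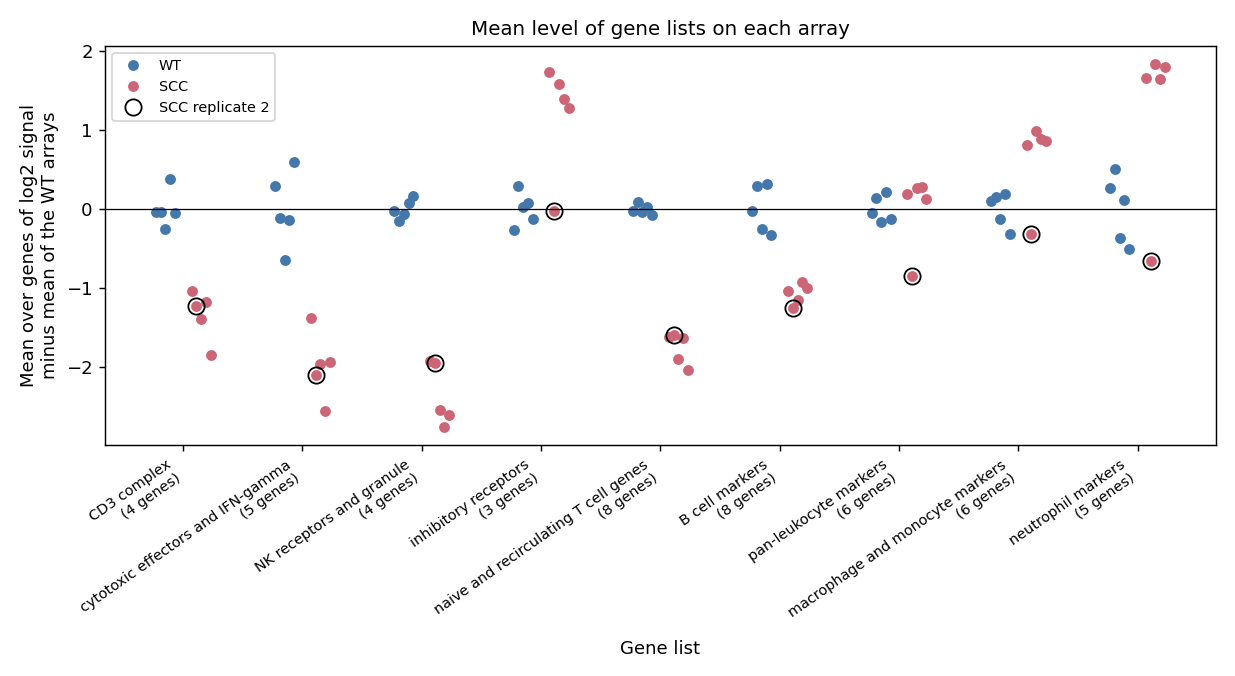
Mean over the tested genes of each list of the log2 signal minus the WT mean, on each array (blue WT, red SCC, black ring SCC replicate 2). The CD3, cytotoxic, NK, naive T cell and B cell lists are lower on all 5 SCC arrays than on all WT arrays, and the inhibitory receptor, macrophage and neutrophil lists are higher on every SCC array except replicate 2.

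The members were also compared with Ptprc on the same array, which asks whether a gene changed by another amount than the pan-leukocyte transcript. After the log2 signal of Ptprc was subtracted, 12 of the 35 members were called lower (6.62% of all tested genes) and 4 higher (23.4% of all tested genes). The 12 were Cd247, Cd8a, Cd28, Gata3, Tbx21, Il2rb, Gzma, Gzmb, Prf1, Klrb1c, Klrd1 and Nkg7. Klrd1 remained the lowest, at -2.44 ± 0.36 (adjusted p = 0.000298), followed by Klrb1c at -2.27 ± 0.48 (adjusted p = 0.00284). The CD3 genes Cd3d and Cd3g passed with decreases of 0.82 and 0.89 log2 units, under 2-fold. The 4 called higher were Pdcd1, at 2.89 ± 0.36 (adjusted p = 9e-05), Bcl11b, at 1.6 ± 0.3 (adjusted p = 0.00124), Havcr2, at 1.51 ± 0.21 (adjusted p = 0.000184), and Pdcd1lg2, at 1.32 ± 0.32 (adjusted p = 0.00624). Relative to Ptprc, all 5 SCC arrays lay above all WT arrays for Pdcd1, Bcl11b, Havcr2 and Cd4, SCC replicate 2 included. Cd4 passed under 2-fold (0.73 ± 0.17, adjusted p = 0.00468). Ptprc was lowest on SCC replicate 2, at 12.31 against 13.01 to 13.23 on the other SCC arrays, which raises every gene there. How many of all genes were separated on this scale was not counted, so the separation is not shown to be particular to these members. The share of all genes called higher on this scale was also larger than without the reference, since Ptprc itself was lower in SCC.

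**Figure D5:**
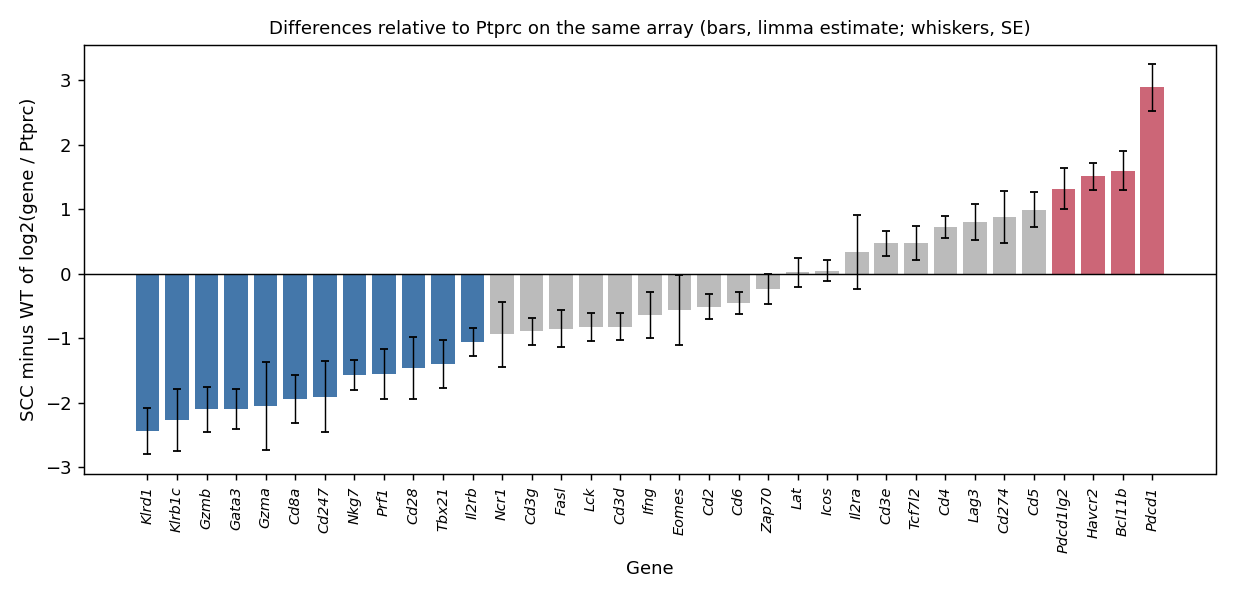
Difference between SCC and WT of the log2 ratio of each gene to Ptprc on the same array, for the 35 tested genes in order (bars, limma estimate; whiskers, SE). Blue bars were called lower and red bars higher, and grey bars were not called. The bars run from Klrd1 at -2.44 to Pdcd1 at 2.89.

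With the mean of the 6 pan-leukocyte markers in place of Ptprc, 19 members were called lower (11.6% of all tested genes) and 2, Bcl11b and Pdcd1, higher (11.3%). The 12 genes called lower against Ptprc were all among the 19. The choice of reference added 7 lower calls, Cd3d, Cd3g, Cd2, Cd6, Lck, Ifng and Fasl, and removed the higher calls of Havcr2 and Pdcd1lg2.

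The remaining genes of the pathway were read from lists. Of 17 other tested genes of T cell receptor signalling, 9 were called lower and none higher, with a median of -1.24 (6 lower with slide as a block). Trat1, an adaptor of the receptor complex, was called lower (-2.56 ± 0.32, adjusted p = 0.000161), but was well above background on 2 of the 5 SCC arrays. The size of its decrease is therefore not settled (-0.85 with normexp). With slide as a block Trat1 did not pass (-1.93, adjusted p = 0.0689). Cd96, a receptor of T and NK cells for nectin family ligands, differed by -2.38 ± 0.64 (adjusted p = 0.0119), with SCC replicate 5 at 2.62 and the other SCC arrays at 5.53 to 6.33. Without that array the difference of Cd96 was -1.71, and with normexp it was -1.03. With slide as a block Cd96 did not pass (-1.71, adjusted p = 0.306). Of 8 naive and recirculating T cell genes 7 were called lower and none higher, with a median of -2.23, and without SCC replicate 2 Il7r was also called higher. Lef1, a TCF/LEF factor of naive T cells, gave 10.21, 10.06, 10.34, 10.39 and 10.03 on WT replicates 1 to 5 and 8.02, 8.79, 7.48, 7.67 and 6.81 on SCC replicates 1 to 5, a decrease without overlap (-2.45 ± 0.31, adjusted p = 0.000171). S1pr1, the receptor that lets lymphocytes leave lymphoid tissue, differed by -2.42 ± 0.21 (adjusted p = 2.25e-05) and Klf2, the factor that controls it, by -2.28 ± 0.16 (adjusted p = 7.2e-06). S1pr1 and Klf2 are also strongly expressed by endothelial cells, whose markers Tek, Kdr and Cdh5 differed by -2.89 ± 0.38, -2.76 ± 0.19 and -2.37 ± 0.23, and the part of endothelial cells was not tested.

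Of 13 other tested NK and cytotoxic genes, 7 were called lower and 1 higher (4 lower and 0 higher with slide as a block). Klrk1, which encodes the activating receptor NKG2D, gave 6.26, 6.33, 5.94, 5.7 and 6.25 on WT replicates 1 to 5 and 2.53, 2.48, 2.74, 2.99 and 2.89 on SCC replicates 1 to 5. It was called lower (-3.37 ± 0.15, adjusted p = 7.67e-07), but was well above background on 1 of the 5 SCC arrays, so the size of its decrease is not settled (-0.68 with normexp). Ccl5, a chemokine made by cytotoxic lymphocytes and many other cells, fell by 2.46 log2 units (SE 0.31, adjusted p = 0.000192). The 1 gene called higher was Fcgr3, an Fc receptor of NK cells that macrophages and neutrophils also carry, at 2.12 ± 0.43 (adjusted p = 0.00288). Fcgr3 therefore moved against the genes called lower in both NK lists, while 5 of these 13 genes did not pass. With slide as a block Fcgr3 did not pass (2.44, adjusted p = 0.0841).

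The regulatory T cell list moved both ways. Of its 6 tested genes, Ikzf2, which encodes Helios, gave 7.71, 8.03, 7.82, 7.7 and 8.06 on WT replicates 1 to 5 and 9.84, 8.7, 9.91, 10.23 and 9.53 on SCC replicates 1 to 5, higher on every SCC array (1.78 ± 0.25, adjusted p = 0.000369). Tnfrsf18, which encodes the receptor GITR, was higher by 1.15 ± 0.39 (adjusted p = 0.0321), with SCC replicate 2 below the WT range. Gpr83, a receptor gene used as a regulatory T cell marker, was lower (-1.25 ± 0.18, adjusted p = 0.000343), but under 2-fold with normexp (-0.62) and with 75th percentile scaling (-0.96). None of the 6 was called with slide as a block, and Tnfrsf18 was not called without SCC replicate 5.

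Other co-stimulatory and co-inhibitory genes were split, with 5 of 20 called higher and 4 lower (2 and 2 with slide as a block). Tnfrsf9, which encodes 4-1BB, a co-stimulatory receptor induced on activated T and NK cells, gave 4.97, 4.8, 4.82, 4.83 and 4.39 on WT replicates 1 to 5 and 9.42, 6.4, 9.07, 7.87 and 8.9 on SCC replicates 1 to 5. Every SCC array lay above every WT array, SCC replicate 2 by the least, and the level was 11.8-fold higher (3.57 ± 0.51, adjusted p = 0.00036, and 1.69 with normexp). Cd226, which encodes DNAM-1, an activating receptor of NK and T cells, gave 6.59, 6.85, 6.5, 7.36 and 6.64 on WT replicates 1 to 5 and 3.17, 4.84, 1.63, 3.63 and 3.64 on SCC replicates 1 to 5. It was called lower (-3.41 ± 0.49, adjusted p = 0.000399), but was well above background on 2 of the 5 SCC arrays. The size of its decrease is therefore not settled either (-1.08 with normexp). With slide as a block Cd226 did not pass (-3.43, adjusted p = 0.0595). Vtcn1, which encodes the inhibitory ligand B7-H4 of epithelial tumours, was well above background on no WT array and on all SCC arrays, and it was called higher (adjusted p = 0.003). With normexp its difference was 0.67, under 2-fold, and with slide as a block it did not pass (adjusted p = 0.104), so the size of its increase is not settled. SCC replicate 2, low in Pdcd1, was the highest array for Vtcn1 at 8.09.

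Of 9 tested T cell chemoattractants and receptors, 1 was called lower, Cxcr6, which marks tissue-resident T cells (-1.31 ± 0.15, adjusted p = 0.000106). Without SCC replicate 2 the count was 3, with Ccl21a and Cx3cr1, and without SCC replicates 2 and 5 it was 2, with Ccl21a. Cxcl9, an interferon-induced attractant of T cells, did not pass, with 9.34, 6.68, 9.73, 6.25 and 9.16 on SCC replicates 1 to 5 against 6.59 to 7.63 on the WT arrays. Of 5 tested genes of IL-17 producing T cells, Il17f was higher (2.04 ± 0.24, adjusted p = 0.000107). It was well above background on 1 WT array and differed by 0.51 with normexp, so the size of its increase is not settled. Sox13 and Ccr6 were lower (-1.4 ± 0.15 and -1.38 ± 0.27). Of these 2, Sox13 alone was called with slide as a block, and Ccr6 was under 2-fold with normexp (-0.97). Of 12 tested cytokine and receptor genes 1 was called, Il12a, which encodes a subunit of interleukin 12 and was lower (-2.08 ± 0.46, adjusted p = 0.00433, not called with slide as a block, and -0.79 with normexp). Of 6 dendritic cell markers 3 were called lower, with Cd209a at -2.75 ± 0.57 (-0.8 with normexp) and well above background on 2 of the 5 SCC arrays, and none with slide as a block. Of the thymocyte markers, Dntt was the 1 tested gene and did not pass, with a WT mean of 6.96 and an SCC mean of 7.06, while Rag1 exceeded background clearly on 0 WT arrays and 1 SCC array, and Rag2 on 0 arrays of either group.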

How the data were processed

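RNA from 5 WT lungs and 5 SCC was measured on one-colour Agilent whole-mouse-genome 4x44K arrays, grouped and numbered as their titles say. The authors extracted the scans with Agilent Feature Extraction (version 12 per the labels). The deposited scanner files hold, per spot, a processed intensity after background subtraction on a linear scale, the median raw intensity and quality flags. A matrix of log2 quantile-normalized values, also deposited, was used only to choose the probe of each gene and as an alternative.

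Control spots and spots flagged as outliers were dropped, repeat spots were averaged, and log2 processed intensities of 41174 probes were quantile-normalized. Probes well above background on at least 4 of 5 arrays of a group were tested (30374). The model was limma 3.58.1 (R 4.3.3) on all arrays without covariates, using lmFit, eBayes and Benjamini-Hochberg adjustment over all tested probes, in place of the one-way analysis of variance of the methods. Exact permutation tests ran over 252 splits (smallest p 0.00794). Of the probes, 28223 (68.5%) received a symbol through RefSeq genes (GRCm38.p6). The files use another build, so probe coordinates are not given. The precision is limited by 5 arrays per group. On simulated data for SCC against WT, 200 of 30374 probes were changed by 2 log2 units. Of these 200, 159 were recovered (79.5%), with 7 false calls among the unchanged probes.

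The members and lists were chosen with earlier results of these data known. All 39 members are named with values or by count. From each other list at most the 3 called genes with the largest difference are named, and Cxcl9, Coro1a, Ccl21a, Cx3cr1, Il7r, Sftpa1, Sftpc, Dntt, Rag1 and Rag2 were added after their values were seen. Some genes of these lists are not reported here. Shared numbers did not pair the samples: the correlations of deviations were -0.10 to 0.01. Alternatives were 75th percentile scaling, normexp on median intensities (offset 50), other filters, the authors' matrix, the methods' t-test with adjustment, averaged probes of a gene, slide and replicate blocks, array weights and left-out arrays, and, chosen after seeing the data, another reference than Ptprc.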

Additional observations from a re-analysis of the deposited data

Results flagged for a closer look

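Within each group of 5 arrays, the gap between the extreme array and its nearest neighbour was divided by the range of the group. Of 70 such groups, 6 exceeded the critical value of 0.71, and chance gives about 1 in 20. SCC replicate 2 was low for Cd5 (9.11 against 11 for the next array, ratio 0.862) and for Bcl11b (7.69 against 9.59, ratio 0.79). SCC replicate 5 was low for Cd28 (2.5 against 4.74, ratio 0.842) and high for Zap70 (8.8 against 8.4, ratio 0.8). WT replicate 5 was low for Cd3e (6.49 against 6.71, ratio 0.74) and high for Cd274 (13.25 against 11.97, ratio 0.736). No array quality measure was tested against these values.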

How the results depend on the processing

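The 19 lower and 1 higher members and the 6954 called probes of the array are compared here with other settings. With normexp 3969 probes and 14 lower members were called (without Cd2, Cd28, Ifng, Fasl and Ncr1), with slide as a fixed block 2989, within slide 2 none (0, against 5835 with an unadjusted limma p under 0.05), and by adjusted p alone 14878. Members called lower numbered 10 with slide as a fixed block and 0 within slide 2, where 1 WT array was available, and members called higher 0 under both. Members called higher numbered 3 with array weights (SCC replicates 2 and 5 weighed 0.13 and 0.14), 3 without SCC replicates 2 and 5 together and 2 by adjusted p alone. Leaving out 1 array gave 6385 to 8135 called probes, 18 to 20 lower members and 1 to 4 higher members, the 4 without SCC replicate 2 (Bcl11b, Pdcd1, Havcr2 and Pdcd1lg2). The methods' t-test with Benjamini-Hochberg adjustment called 6525 probes, 18 lower members (without Ifng) and 1 higher, and the authors' matrix 6984, 20 (with Cd6) and 1. Relative to Ptprc, the mean of 6 pan-leukocyte markers gave 19 lower and 2 higher, and 7 were higher without SCC replicates 2 and 5 together. Leaving out SCC replicate 2 or 5 there gave 12 to 14 lower and 5 to 6 higher. The shares of all genes were not counted for these left-out arrays. With all arrays 6.62% of all tested genes were called lower and 23.4% higher relative to Ptprc.

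With the replicate block, 6571 probes, 18 lower members and 1 higher member were called, and Ifng (adjusted p = 0.076), Icos (0.073) and Havcr2 (0.0598) no longer passed. The slide as a random block had a correlation of -0.017 and kept every member on its side of the adjusted p threshold, with 20 called lower because Cd6 reached 2-fold.

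Directions that turned belonged to members that did not pass. Cd3e was 0.13 with 75th percentile scaling, which moved the median of all probes from -0.09 to 0.03, and 0.01 both with slide as a fixed block and within slide 2. Il2ra was 0.35, 0.03, 0.11, 0.11, 0.28, 0.36, 0.03 and 0.25 with 75th percentile scaling, normexp, slide as a block, within slide 2, array weights, without WT replicate 4, without SCC replicate 5 and without SCC replicates 2 and 5, and single left-out arrays gave -0.48 to 0.36. Tcf7l2 was 0.07 for averaged probes and 0.02 without SCC replicate 5, with -0.16 to 0.02 over single left-out arrays, and Cd274 was -0.91 with slide as a block and within slide 2. The cause was not tested.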
